A study of Mus musculus with 24 samples.

Results

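Potassium channel genes were examined in purified β cells of mice whose mothers had eaten different diets. The set held the protein-coding genes whose symbol is Kcn followed by further lower-case letters and a number, the naming pattern of potassium channel pore and accessory subunits. It came to 87 of the 33619 genes in the count table. By family these were 38 voltage-gated channel genes, 12 inward rectifiers, 14 two-pore leak channels, 8 channels gated by calcium, sodium or pH, and 15 accessory subunits. Per the labels, wild-type CD1 dams of about 7 weeks ate a high-fat diet (HFD), a low-protein diet (LPD) or a control diet (ND) for 2 weeks and were then mated to Ins1Apple males. The offspring of all 3 diets carried Ins1Apple, which puts the fluorescent reporter Apple under the insulin gene Ins1, and ate the control diet after birth. Apple-positive cells were sorted from their dispersed islets at about 7 weeks of age. Ribosome-depleted RNA was sequenced in 6 groups of 4 libraries, HFD male, HFD female, LPD male, LPD female, ND male and ND female. The labels name neither litters nor dams, so that p-values measure the spread between these libraries only.

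Potassium channels set the membrane potential of the β cell. At low glucose, open potassium channels hold the cell hyperpolarised. When glucose metabolism closes the ATP-sensitive channels, the membrane depolarises, calcium channels open and insulin granules are released. Voltage-gated and calcium-activated channels then repolarise the membrane, two-pore channels carry leak currents, and G-protein-gated inward rectifiers let hormones and transmitters reduce excitability.

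Total counts per library lay between 12433228 and 26375565, around a median of 20719858. Diet and sex follow the column names of the table. Library numbers printed above those names give another diet for all 24 columns and another sex for the 8 ND columns, while the Xist and Y-linked counts fit the sex in the column name in all 24. Every diet direction given here therefore rests on the column names. The 4 HFD female libraries stood apart. They had 13225 to 19404 genes with any count, against 19160 to 25830 in the other 20 libraries. Genes with 1 to 9 counts made up 4.40% to 8.18% of those detected, against 13.2% to 31.9%. Of the 3155 genes at 1 to 3 CPM (counts scaled to a common library total) on average in ND females, 87.4% were at 0 in at least 1 HFD female library, and 1.33% were at 0 in at least 1 LPD female library. Of the 2968 genes at 3 to 10 CPM, 46.5% were at 0 in at least 1 HFD female library. A count of 0 in these libraries therefore does not bound the level of a lowly expressed gene. β-cell markers were high in every library, at 88903 to 296721 CPM summed over 8 genes. Most of this sum was Ins1 and Ins2, at 7.65% to 27.5% of a library's counts. Their share was 20.5% to 27.5% in HFD males and 15.7% to 18.2% in ND males. A larger insulin share lowers the CPM of other genes, and the CPM of single libraries given here are not scaled for this. The sum of 5 alpha-cell markers was 546 to 1364 CPM and that of 4 delta-cell markers 270 to 789 CPM. For 2 PP-cell markers the sum was 108 to 559 CPM. It was 75.2 to 836 CPM for 9 acinar markers and 191 to 285 CPM for 5 duct markers. The sum of 5 endothelial markers was at most 13.6 CPM. The part of these other cells in the potassium channel counts was not tested.

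The potassium channel genes showed the same gap. In HFD female libraries 40 to 50 of the 87 genes had 0 counts and 0 to 3 had 1 to 9 counts, against 14 to 35 and 4 to 23 in the other 20 libraries. The number with 10 counts or more overlapped, at 36 to 46 in HFD females and 45 to 54 elsewhere.

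**Figure D1:**
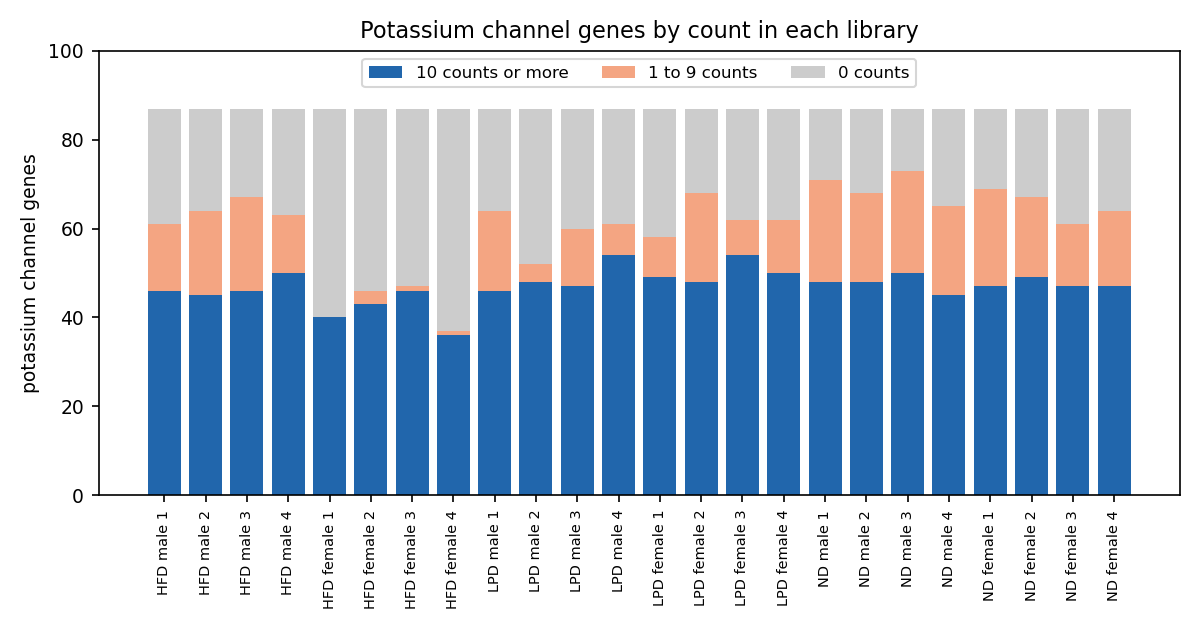
Stacked bars give, for each of the 24 libraries on the horizontal axis, how many of the 87 potassium channel genes had 10 counts or more, 1 to 9 counts or 0 counts. In the 4 HFD female libraries 0 to 3 genes fell in the class of 1 to 9 counts, below every other library.

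Of the 87 genes, 46 were detected, meaning at least 1 CPM of the library's own total in at least 4 libraries. This was 52.9% of the set, against 71.5% of the 17665 protein-coding genes. All 24 libraries held at least 1 CPM of 30 of them, and 32 of the 87 stayed below 1 CPM in every library. Each of the 87 had at least 1 count somewhere. Detected were 20 of the 38 voltage-gated genes, 4 of the 12 inward rectifiers, 7 of the 14 two-pore channels, 6 of the 8 ion-activated channels and 9 of the 15 accessory subunits. Among the genes just inside the threshold were Kcnk10, a mechanically gated leak channel, with 7 libraries at 1 CPM, and Kcnn4, the intermediate-conductance calcium-activated channel, with 8. Outside it, 9 genes reached 1 CPM in 1 library each. For Kcna3, Kcnd3, Kcnk2, Kcnk5, Kcnv1 and a further gene this was an HFD female library, with Kcna3 at 5.63 CPM in HFD female 1. Of the 87 genes, all 4 libraries held at least 1 CPM of 42 in HFD males, 33 in HFD females, 39 in LPD males, 40 in LPD females, 42 in ND males and 40 in ND females. The number detected was 46 without the HFD female libraries too.

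Between genes, levels were compared as FPKM, which divides by gene length. Kcnk16, which encodes a pancreas-enriched two-pore leak channel that limits β-cell excitability (ENSMUSG00000023387.8, chromosome 14, 20261376 to 20269199, GRCm38), had the highest level in each of the 24 libraries. Its median was 126.85 FPKM with a range of 93.7 to 165.1, and it stood 3.48 to 8.27 times above the next potassium channel gene of the same library. Kcnh2 followed with a median of 22.7 FPKM (14.0 to 31.7). It encodes the ERG channel that repolarises the heart. Kcnmb2, an accessory subunit that inactivates BK channels, had 20.9 FPKM (17.9 to 28.6), and Kcnh6, a further ERG channel, had 19.0 FPKM (14.4 to 25.1). The ranges of these 3 overlapped, so their order is not fixed by the data. None of the 3 reached the range of Kcnk16.

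Below them, the BK channel was represented by its pore gene Kcnma1 at 8.79 FPKM and its accessory subunit Kcnmb1 at 9.90 FPKM. Kcnj12, a classical inward rectifier, had 8.96 FPKM, and Kcnip1, a calcium-binding partner of A-type channels, had 8.79 FPKM. Kcnn3, a small-conductance calcium-activated channel, had 8.18 FPKM, and the two-pore genes Kcnk1 and Kcnk12 had 7.65 and 6.41 FPKM. Kcnh1, an EAG channel, stood at 7.23 FPKM and Kcng3, a silent subunit that modifies delayed rectifiers, at 6.35 FPKM. The ranges of neighbours among these genes overlapped. In all, 31 genes had a median of at least 1 FPKM and 5 of at least 10 FPKM.

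**Figure D2:**
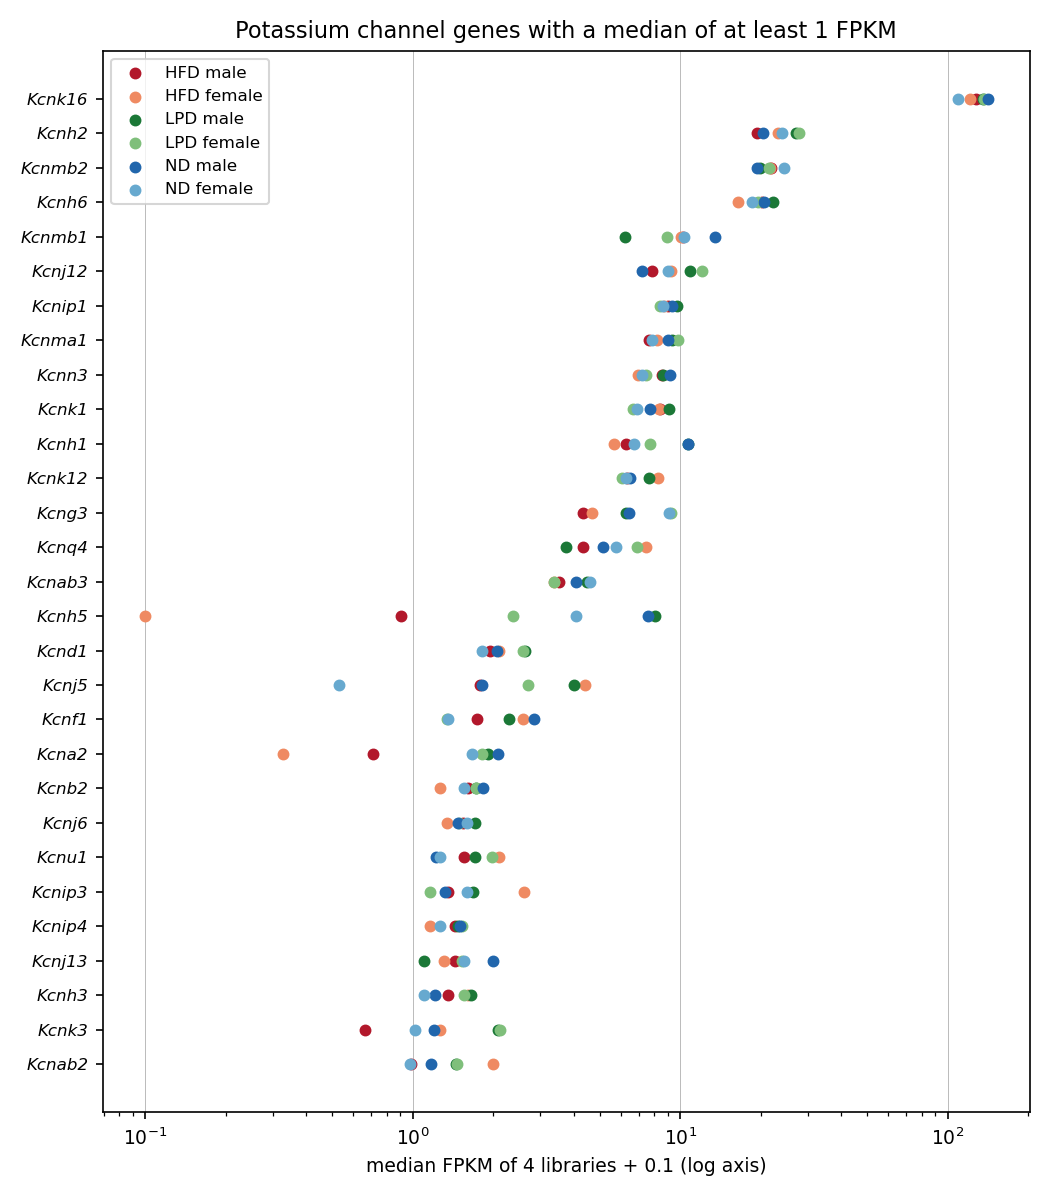
Each row is 1 of 29 potassium channel genes with a median of at least 1 FPKM, and each point the median FPKM of the 4 libraries of a group plus 0.1, on a log axis. Kcnk16 stands to the right of all other genes in every group. Kcnh5, Kcnj5 and Kcna2 spread widely between groups, with Kcnh5 at 0 in HFD females.

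Of 35 genes listed because physiology ties them to β cells, 23 were detected and 12 were not. The 12 were Kcna3, Kcnd2, Kcnd3, Kcnmb4, Kcnj3, Kcnj8, Kcnk2, Kcnk5, Kcns3, Kcnv1, Kcng2 and Kcne2, with medians of 0 to 0.0625 FPKM. Kcnj3 and Kcnj6 encode subunits that assemble into G-protein-gated inward rectifiers, as does Kcnj5. Kcnj3 stayed below 1 CPM in all 24 libraries, while Kcnj6 was at 1 CPM or more in all 24, with a median of 1.47 FPKM. Kcnj5 had a median of 1.97 FPKM (0.382 to 4.63). Lower in the order stood Kcnb2, a delayed rectifier, at a median of 1.56 FPKM, Kcna2 at 1.57, Kcnk3 at 1.10, Kcnn1 at 0.756, Kcnq1 at 0.555, Kcnc2 at 0.224 and Kcnn4 at 0.153 FPKM. Kcnj8, the vascular partner of sulfonylurea receptors, had counts in 1 of the 24 libraries only.

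Promoter sequences are shown for the most abundant gene, Kcnk16, and for Kcnh5 and Kcnj5, on which the diet comparisons turn. They are the 250 bases before the RefSeq start of each gene in GRCm38.p6, on the gene's own strand. Capitals mark the E-box CANNTG, which helix-loop-helix factors bind and which reads the same on both strands. The homeodomain core TAAT was also searched on both strands.
Kcnk16 (chr14:20269270-20269519, minus strand): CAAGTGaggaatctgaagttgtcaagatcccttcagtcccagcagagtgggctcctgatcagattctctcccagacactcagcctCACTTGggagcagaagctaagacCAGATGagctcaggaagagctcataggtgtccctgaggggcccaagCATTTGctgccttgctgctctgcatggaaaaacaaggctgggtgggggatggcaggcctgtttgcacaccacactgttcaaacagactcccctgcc
Kcnh5 (chr12:75177333-75177582, minus strand): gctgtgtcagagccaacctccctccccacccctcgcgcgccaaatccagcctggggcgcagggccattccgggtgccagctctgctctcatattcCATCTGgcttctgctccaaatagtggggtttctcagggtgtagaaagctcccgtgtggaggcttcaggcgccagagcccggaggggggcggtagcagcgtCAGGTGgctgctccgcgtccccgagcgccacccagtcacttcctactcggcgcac
Kcnj5 (chr9:32344345-32344594, minus strand): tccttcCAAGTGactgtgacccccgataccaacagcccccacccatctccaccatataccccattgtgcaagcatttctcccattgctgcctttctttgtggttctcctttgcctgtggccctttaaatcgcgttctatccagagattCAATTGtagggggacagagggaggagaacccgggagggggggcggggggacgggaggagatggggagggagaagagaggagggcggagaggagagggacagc
Kcnk16 held 4 E-boxes, and Kcnh5 and Kcnj5 held 2 each. At least 1 E-box was found in 66.2% of the 32851 promoter windows of this length, and in 43 of the 64 potassium channel genes with an entry. The homeodomain core was in 0 of the 3 and in 54.9% of all windows, with 30 of the 64. The GC content was 54.8% for Kcnk16, 65.6% for Kcnh5 and 58% for Kcnj5.

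Differences between groups were tested for the 53 potassium channel genes that passed the filter on low counts, which kept 19235 genes. The 53 included all 46 detected genes and 7 that were not detected. A filter of this kind passes a gene through the group where it is high. Across 10 comparisons, 20 of the 53 were called at least once (edgeR quasi-likelihood test, Benjamini-Hochberg adjusted p below 0.05 over all genes tested). This was 37.7% of the 53, against 16.7% of all genes tested. Of the 15 genes highest by FPKM, 7 were among them. In bulk RNA, fewer cells of a type and less RNA per cell cannot be told apart.

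Offspring of HFD dams were set against those of ND dams to look for an effect of maternal fat intake. Over both sexes 10 potassium channel genes were called, against 7.2% of all genes tested. Higher were Kcnj5 (1.51 ± 0.30, log2 fold change ± SE, adjusted p = 0.00233) and Kcnn1 (1.02 ± 0.27, adjusted p = 0.0181), against 1.67% of all genes called higher. Lower were Kcnh5, Kcnh1, Kcng3, Kcna2, Kcna5, Kcnk10, Kcnj2 and Kcnj4, against 5.52% of all genes called lower. Of these 8, Kcna5, Kcnk10, Kcnj2 and Kcnj4 were at 0 in all HFD females and were not called in males, with or without the HFD female libraries in the fit. Kcnj2 and Kcnj4 had at most 4 counts in any HFD library, so they passed the filter through the LPD and ND libraries and could hardly come out other than lower. Kcna5 had 0, 3, 4 and 12 counts in HFD males, 0 to 9 in LPD libraries and 7 to 15 in ND libraries. It thus passed mainly through the ND libraries, so a lower value in HFD was hard to avoid. The median log2 fold change was -0.04 over the 53 genes and -0.06 over all genes. With HFD female 1 and 4 left out, in which 47 and 50 of the 87 genes were at 0, there were 12 calls, 9 of them shared with the 10. Hepatocyte markers moved with the same groups. Their sum over 10 genes was 66.0 to 118 CPM in HFD males and 124 to 213 CPM in HFD females, against 0.756 to 3.54 CPM in the 16 LPD and ND libraries, where 5 to 7 of the 10 were at 0 in each group. The sum of 4 delta-cell markers was 387 to 789 CPM in HFD males and 270 to 356 CPM in HFD females, against 297 to 572 CPM in ND males and 427 to 637 CPM in ND females. The sum of 9 acinar markers was 189 to 340 CPM in HFD males and 107 to 366 CPM in HFD females, against 212 to 670 CPM in ND males and 392 to 694 CPM in ND females, where the 2 female groups did not overlap. The part of these cells in the HFD results was not tested.

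Kcnh5 was lower in every HFD library. It encodes an EAG channel best known from brain (ENSMUSG00000034402.3, chromosome 12, 74897220 to 75177332). HFD males had 2.12, 5.16, 2.94 and 3.59 CPM and all 4 HFD females had 0 counts. ND males had 30.6, 35.7, 29.8 and 30.2 CPM, and ND females 16.5, 17.8, 15.9 and 6.56 CPM. All 8 HFD libraries lay below all 8 ND libraries (adjusted p = 4.01e-05). In males the difference was -3.17 ± 0.78 (adjusted p = 0.0431), and without the HFD female libraries in the fit it was -3.16 ± 0.73 (adjusted p = 0.0110). Leaving out 1 library at a time ended this call in males in 15 of 24 fits, with an adjusted p of up to 0.161 and a difference of -3.44 to -2.999. Those 15 left out any 1 HFD male or ND male, LPD male 1, 2 or 3, LPD female 3, or ND female 1, 2 or 3.

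In females Kcnh5 was at least 317-fold lower in HFD than in ND, against a floor of 3 counts over the summed HFD female libraries (adjusted p = 0.00025). The floor covers counting error only. Among the 3582 genes at 10 to 30 CPM in ND females, Kcnh5 was the 1 gene at 0 in all 4 HFD females, whereas 5.92% were at 0 in at least 1 of them. Between 30 and 100 CPM no gene was at 0 in all 4.

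Under LPD, Kcnh5 spread widely within a sex. LPD males had 33.9, 35.6, 30.4 and 4.02 CPM, and LPD females 0.804, 1.91, 16.6 and 38.1 CPM. The LPD and ND ranges overlapped in both sexes, at -0.24 in males and 0.09 in females on the log2 scale. The library LPD male 4 and the libraries LPD female 1 and 2 were thus within or below the range of HFD males.

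Kcnj5 differed in the opposite direction. It encodes a G-protein-gated inward rectifier subunit known from heart atrium and adrenal cortex (ENSMUSG00000032034.6, chromosome 9, 32314707 to 32344350). HFD females had 21.7, 18.8, 21.6 and 8.69 CPM, against 1.88, 1.79, 2.17 and 2.34 CPM in ND females. Every HFD female lay above every ND female, a difference of 3.07 ± 0.45 (adjusted p = 0.000121). HFD males had 2.23, 7.94, 7.79 and 10.1 CPM, against 9.74, 8.01, 8.04 and 3.97 CPM in ND males. In males the ranges overlapped and the difference was -0.05. The effect in males minus the effect in females was -3.12 ± 0.60 (adjusted p = 0.00562), in a test that uses the HFD females.

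**Figure D3:**
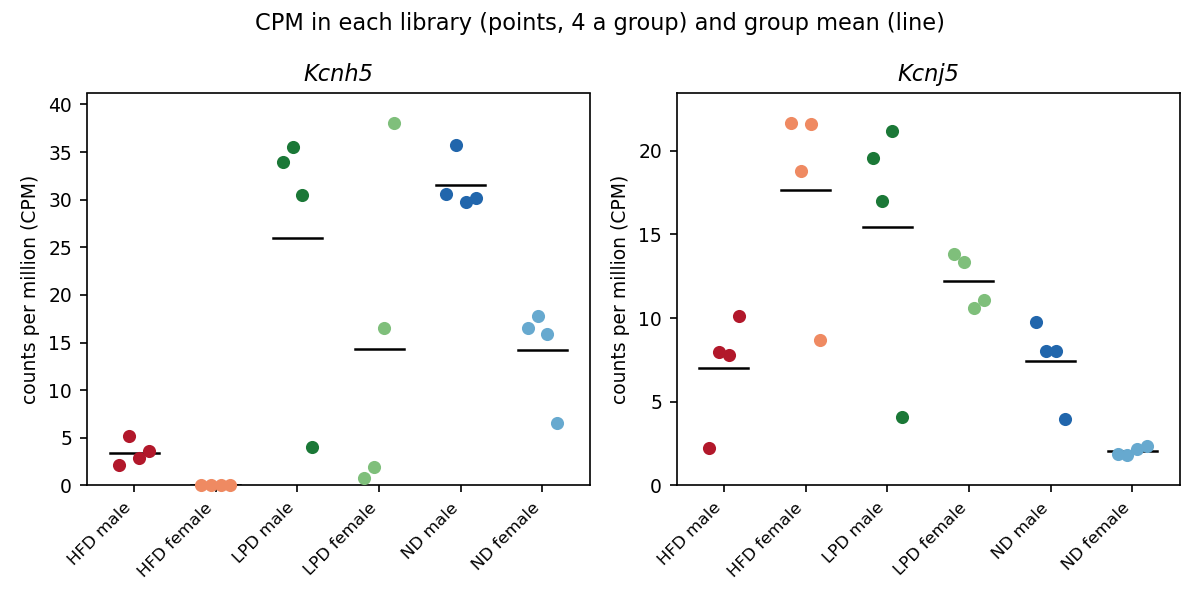
Points give the CPM of each library, 4 in each of the 6 groups on the horizontal axis, and lines the group means, for Kcnh5 on the left and Kcnj5 on the right. Kcnh5 is at 0 in all HFD females and at 2.12 to 5.16 CPM in HFD males, below all ND libraries. Kcnj5 has its lowest group mean in ND females, at 1.79 to 2.34 CPM.

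In males alone, HFD against ND had 2 calls, Kcnh5 among them, against 1.25% of all genes.

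The HFD female libraries enter the male comparison through the shared estimate of the spread. Fitted without them, 7 potassium channel genes were called in HFD males, all lower, against 2.43% of all genes called lower. Among them were Kcnh5, Kcna2, Kcng3, Kcnh1 and Kcnk3. In each of these 5 genes all 4 HFD males lay below all 4 ND males. Kcna2, an axonal delayed rectifier, had 9.07, 5.82, 7.06 and 7.52 CPM in HFD males, against 25.3, 23.3, 23.96 and 20.2 CPM in ND males, a difference of -1.61 ± 0.20 (adjusted p = 1.85e-05). With all libraries in the fit its adjusted p in males was 0.183. Kcnh1 had 41.6 to 53.2 CPM in HFD males and 67.1 to 80.9 CPM in ND males (-0.67 ± 0.17, adjusted p = 0.0187).

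Kcng3 had 11.3 to 16.1 CPM in HFD males and 18.9 to 21.9 CPM in ND males (-0.53 ± 0.14, adjusted p = 0.0246). Kcnk3, an acid-sensitive leak channel, had 1.98 to 3.04 CPM in HFD males and 3.75 to 4.87 CPM in ND males (-0.83 ± 0.22, adjusted p = 0.0301). Kcnk3 shares exon bases with a gene on the opposite strand, and without a stated strand setting its reads cannot be told apart from that gene's.

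**Figure D4:**
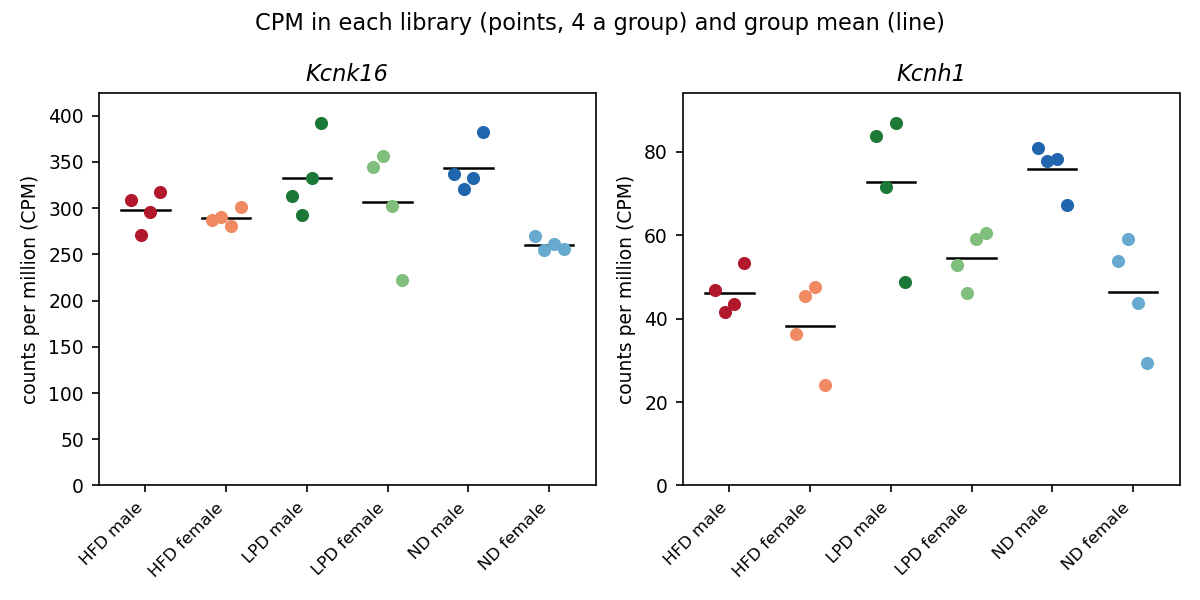
Points give the CPM of each library, 4 in each of the 6 groups on the horizontal axis, and lines the group means, for Kcnk16 on the left and Kcnh1 on the right. HFD males lie below ND males in Kcnh1 (41.6 to 53.2 CPM), and the ranges of the 2 groups do not overlap.

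In females alone, HFD against ND had 10 calls, against 9.33% of all genes. Higher were Kcnj5, Kcnn1, Kcnq3 and Kcnab2, against 1.98% of all genes called higher. Lower were Kcnh5, Kcng3, Kcnk10, Kcna5, Kcnj4 and Kcnj2, against 7.35% of all genes called lower. All of these rest on the HFD female libraries. Fitted on the 8 female HFD and ND libraries alone, 2 were called, Kcnh5 and Kcnj5, and with a weight for each library's quality 2 were called, Kcnj5 and Kcnn1.

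Kcnn1, a small-conductance calcium-activated channel, had 6.96, 6.55, 13.9 and 22.2 CPM in HFD females, against 3.17, 2.59, 3.56 and 1.99 CPM in ND females. The groups did not overlap (2.11 ± 0.39, adjusted p = 0.00103). In males the ranges overlapped, at 2.98 to 4.996 CPM in HFD and 3.39 to 4.50 CPM in ND. Kcnn1 shares exon bases with an opposite-strand gene. Kcnq3, a subunit of the M current, had 22.5, 7.64, 2.53 and 8.20 CPM in HFD females, against 2.21, 3.08, 0.770 and 2.58 CPM in ND females (2.18 ± 0.49, adjusted p = 0.00579). HFD female 3 lay within the ND range. Kcnab2, a cytoplasmic beta subunit, had 6.63 to 17.2 CPM in HFD females and 5.12 to 7.50 CPM in ND females (0.97 ± 0.27, adjusted p = 0.0202), with 1 HFD female within the ND range. This call was lost without ND female 2 or 3, with an adjusted p of up to 0.0789.

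Kcng3 was the 1 gene called lower in HFD females that had counts in all of them. It had 17.1, 22.6, 10.4 and 13.6 CPM in HFD females, against 34.8, 32.8, 27.8 and 22.5 CPM in ND females (-0.91 ± 0.19, adjusted p = 0.00307). The highest HFD female and the lowest ND female were about level. Kcnk10, Kcna5 (a delayed rectifier of atrium and vessels), Kcnj4 and Kcnj2 (classical inward rectifiers) were at 0 in all 4 HFD females. In ND females Kcnk10 had 0.586 to 1.01 CPM, Kcna5 0.337 to 0.697 CPM, Kcnj4 0.193 to 0.625 CPM and Kcnj2 0.0995 to 0.530 CPM. Against the floor of 3 counts, Kcnk10 was at least 17.7-fold lower (adjusted p = 0.000212) and Kcna5 at least 11.0-fold lower (adjusted p = 0.00605). For Kcnj4 the bound was 9.39-fold (adjusted p = 0.0079) and for Kcnj2 6.26-fold (adjusted p = 0.0288). With 0 counts in HFD females, Kcnk10, Kcna5, Kcnj4 and Kcnj2 had passed the filter through other groups only. The Kcnj2 call was lost without ND female 3 (adjusted p = 0.0728). At these levels many genes were at 0 in HFD females, 22.02% of the 3811 genes at 0.3 to 1 CPM in all 4, so the bounds do not cover genes lost from the libraries. In HFD males Kcnk10 had 0.631 to 1.30 CPM, against 0.681 to 1.18 CPM in ND males.

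HFD females also varied widely among themselves in some genes. Kcna2 had 3.36, 2.07, 16.5 and 0 CPM in HFD females, against 18.9, 21.9, 18.5 and 8.79 CPM in ND females. Kcnk1, a weak inward-rectifying leak channel, had 44.5, 26.5, 10.3 and 9.81 CPM in HFD females, against 12.9 to 19.1 CPM in ND females. Neither passed the test in females. Kcna2 was called over both sexes (-1.61 ± 0.39, adjusted p = 0.0115), as were Kcng3 (-0.73 ± 0.13, adjusted p = 0.00121) and Kcnh1 (-0.49 ± 0.14, adjusted p = 0.0325). Leaving out 1 library at a time ended the Kcnh1 call in 8 of 24 fits, those without HFD male 1, 2 or 3, ND male 1, 2 or 3, or ND female 1 or 2, with an adjusted p of up to 0.0804.

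The direct test of a different HFD effect in the sexes called 4 potassium channel genes, against 3.64% of all genes. They were Kcnj5 and Kcnk10, Kcnn1 (-2.19 ± 0.53, adjusted p = 0.0212) and Kcnq3 (-2.62 ± 0.68, adjusted p = 0.0291), where a negative value means a lower effect in males. Kcnk10 came out with the higher effect in males (adjusted p = 0.00355), a call that rests on 0 counts in all HFD females. HFD males had 0.631 to 1.30 CPM of it, against 0.681 to 1.18 CPM in ND males. Kcnk10 passed the filter through other groups only, so a lower value in HFD females was hard to avoid. Of genes at 0.3 to 1 CPM in ND females, 22.02% were at 0 in all 4 HFD females. For Kcnh5 the test did not pass (adjusted p = 0.0615). The Kcnq3 call was lost in 10 of 24 fits with 1 library left out and the Kcnn1 call without HFD male 2 (adjusted p = 0.0509). Those 10 left out HFD female 1, any 1 HFD male, ND female 1 or 3, or ND male 1, 2 or 3, with an adjusted p of up to 0.0651.

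**Figure D5:**
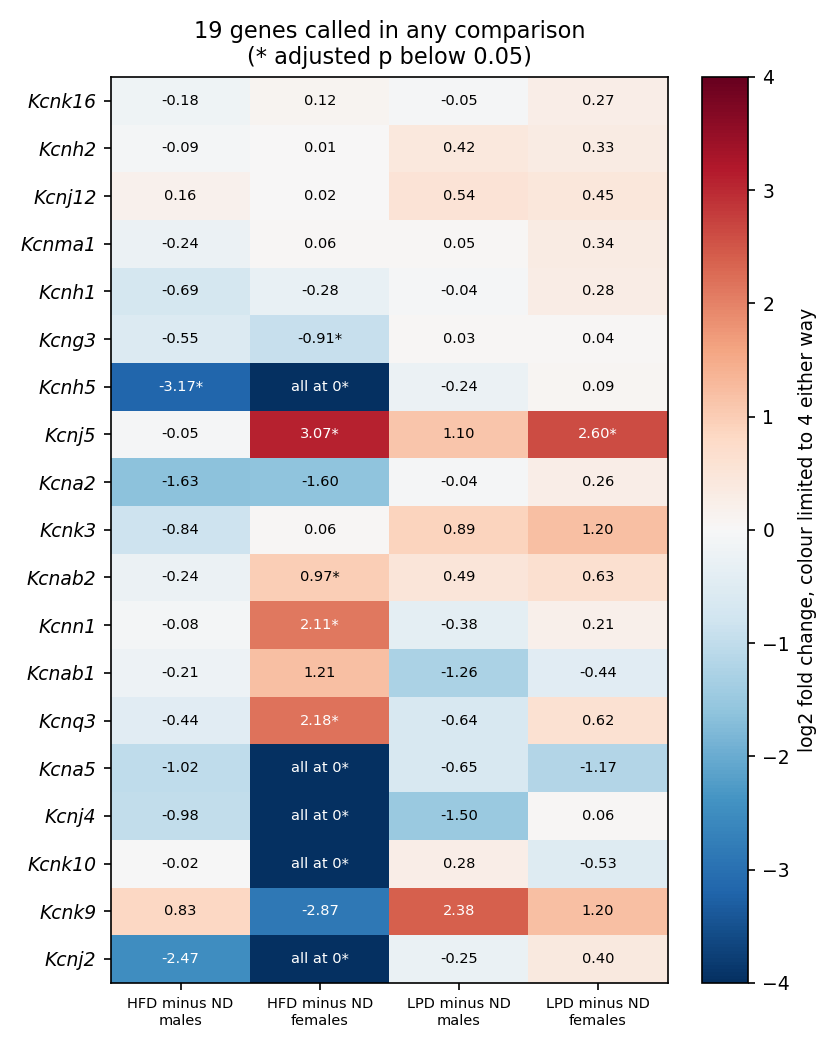
Colour and number give the log2 fold change for 19 potassium channel genes called in any comparison (rows) in 4 comparisons (columns), with * for an adjusted p below 0.05. Cells written as all at 0 mark genes with no counts in any HFD female, where the fitted value is no measure of size. Kcnj5 is at 3.07 in HFD females and 2.60 in LPD females, and at -0.05 in HFD males.

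The comparison of LPD with ND asked what a maternal low-protein diet changed. Over both sexes 2 potassium channel genes were called, Kcnj5 and Kcnj12, both higher, against 0.832% of all genes. Kcnj5 had 19.5, 17.0, 21.2 and 4.08 CPM in LPD males and 13.8, 13.3, 10.6 and 11.1 CPM in LPD females. Set against the ND values above, 7 of the 8 LPD libraries lay above all 8 ND libraries, LPD male 4 being the exception (1.85 ± 0.30, adjusted p = 0.00228). In females the difference was 2.60 ± 0.44 (adjusted p = 0.00556), the single call, against 0.307% of all genes. In males Kcnj5 did not pass, at 1.10. In males edgeR called 0 genes of the set, against 0.187% of all genes, with 8 of the 53 at an unadjusted p below 0.05. DESeq2 called 2 of the set, and its share of all genes is not given here. HFD and LPD were set against the same ND libraries, so that the low ND female values of Kcnj5 enter both differences.

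Kcnj12 (ENSMUSG00000042529.14, chromosome 11, 61022564 to 61071131) had 29.1, 30.4, 30.2 and 24.6 CPM in LPD males, against 20.4, 18.7, 18.8 and 21.3 CPM in ND males. LPD females had 32.7, 29.7, 33.2 and 34.9 CPM, against 26.7, 22.2, 27.9 and 21.6 CPM in ND females. All LPD libraries lay above all ND libraries of their sex (0.49 ± 0.09 over both sexes, adjusted p = 0.00727). Both calls held in all 24 fits with 1 library left out.

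Fitted without the HFD female libraries, 12 potassium channel genes were called between LPD and ND, against 5.37% of all genes. Higher were 11, and Kcnmb1 was lower. Kcnk3 had 6.65, 8.95, 9.60 and 6.78 CPM in LPD males, against 4.66, 4.87, 3.75 and 4.11 CPM in ND males, and 8.58, 6.13, 7.48 and 8.83 CPM in LPD females, against 4.09, 3.88, 2.36 and 3.48 CPM in ND females. All 8 LPD libraries lay above all 8 ND libraries (1.04 ± 0.15, adjusted p = 0.000267). Kcnk9, an acid-sensitive leak channel like Kcnk3, had 0.670 to 3.44 CPM in LPD, against 0 to 1.79 CPM in ND (1.78 ± 0.46, adjusted p = 0.0230). Kcnmb1 was lower by -0.50 ± 0.14 (adjusted p = 0.0439), with LPD male 4 (57.9 CPM) at the top of the ND range.

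The other genes called in that fit moved less. Kcnh2 (0.37 ± 0.10), Kcnh3 (0.50 ± 0.15), Kcnd1 (0.44 ± 0.12), Kcnab2 (0.55 ± 0.12), Kcnu1 (0.59 ± 0.15) and Kcnma1 (0.18 ± 0.05) had adjusted p of 0.0111 to 0.0469. Kcnh2 encodes the ERG channel named above, Kcnd1 an A-type channel and Kcnu1 a pH-gated channel known from sperm. By sex, the same fit called 3 genes in males, Kcnk3 and Kcnj12 among them, against 1.85% of all genes, and 4 in females (Kcnj5, Kcnk3, Kcnj12 and Kcnma1), against 2.44% of all genes. In the direct test of a different LPD effect in the sexes, edgeR called 0 potassium channel genes with or without the HFD females, against 0.0052% of all genes, and 3 had an unadjusted p below 0.05. DESeq2 called 0 in that test and voom with quality weights called 4, with the share of all genes called by either not given here.

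The direct comparison of HFD with LPD had 16 calls, against 9.99% of all genes. Higher were Kcnn1 and Kcnab1, a cytoplasmic beta subunit, against 2.38% of all genes called higher. Lower were 14, against 7.61% of all genes called lower. Among the 14, Kcnj2 and Kcnj4 had at most 4 counts in any HFD library, so they could hardly come out other than lower. Kcnk10 and Kcna5 were also at 0 in all HFD females, at levels where many genes were at 0 there. The count of 14 is therefore no clean measure against that share. The median log2 fold change was -0.21 over the 53 genes and -0.05 over all genes. Without HFD female 1 and 4 there were 15 calls, 14 of them shared. The sum of the acinar markers was 514 to 836 CPM in LPD males, above all HFD males, and 75.2 to 687 CPM in LPD females, and its part in these results, like that of the hepatocyte markers, was not tested. Kcnk3 was lower in all 8 HFD libraries than in any LPD library, at 1.98 to 3.04 CPM in HFD males and 0 to 5.40 CPM in HFD females, against 6.13 to 9.60 CPM in LPD (-1.44 ± 0.39, adjusted p = 0.0187). Kcnma1 had 120 to 134 CPM in HFD males and 127 to 160 CPM in HFD females, against 150 to 172 CPM in LPD, with 7 of 8 HFD libraries below all LPD libraries (-0.28 ± 0.06, adjusted p = 0.00282).

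Among the abundant voltage-gated genes, Kcnh2 (-0.42 ± 0.11, adjusted p = 0.0116), Kcnh1 (-0.61 ± 0.14, adjusted p = 0.00622) and Kcng3 (-0.77 ± 0.13, adjusted p = 0.000559) were lower in HFD than in LPD. Kcnj12 was lower too (-0.40 ± 0.09, adjusted p = 0.00649), at 20.4 to 24.7 CPM in HFD males and 24.4 to 27.3 CPM in HFD females, against 24.6 to 34.9 CPM in LPD. Kcna2 (-1.72 ± 0.40, adjusted p = 0.00576), Kcnk9 (-2.81 ± 0.71, adjusted p = 0.0117), Kcnh5, Kcnk10, Kcnj2, Kcnj4 and Kcna5 were also among the 14. Kcnk9 was at 0, 0.422, 0 and 0 CPM in HFD females and at 0.371 to 1.19 CPM in HFD males, against 1.62 to 3.41 CPM in LPD males and 0.670 to 3.44 CPM in LPD females. Without HFD female 2 its fitted value was -4.96, which is no measure of size since the other HFD females were at 0. Kcnh5, Kcnk10, Kcnj2, Kcnj4 and Kcna5 were at 0 in all HFD females, and the call of 2 of them was lost with 1 library left out, in 12 of 24 fits for Kcnj4 and 6 of 24 for Kcna5, with adjusted p of up to 0.0883 and 0.0703. For Kcnj4 these left out HFD male 1, 2 or 3, HFD female 3 or 4, LPD male 1 or 4, LPD female 1, 3 or 4, or ND male 3 or 4, and for Kcna5 HFD male 2 or 3, LPD male 1 or 3, or LPD female 2 or 4. Kcnn1 was higher by 1.10 ± 0.27 (adjusted p = 0.00867) and Kcnab1 by 1.35 ± 0.35 (adjusted p = 0.0138), Kcnab1 standing at 2.14 to 4.23 CPM in HFD males and 3.91 to 16.9 CPM in HFD females, against 0.780 to 2.74 CPM in LPD males and 0.938 to 3.98 CPM in LPD females.

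The comparison of males with females used the ND and LPD libraries. HFD was left out because of its female libraries, a choice made with earlier results known. It called 3 potassium channel genes, all higher in males, against 0.863% of all genes. Kcnk16 had 313, 293, 332 and 393 CPM in LPD males and 337, 321, 333 and 382 CPM in ND males. Females had 345, 356, 302 and 223 CPM under LPD and 270, 255, 261 and 256 CPM under ND. Under ND the sexes did not overlap, and under LPD they did (0.36 ± 0.08 over both diets, adjusted p = 0.0125). Kcnh1 had 83.8, 71.5, 87.0 and 48.9 CPM in LPD males and 80.9, 77.7, 78.2 and 67.1 CPM in ND males, against 52.8, 46.1, 59.0 and 60.6 CPM in LPD females and 53.8, 59.0, 43.6 and 29.5 CPM in ND females. In 7 of 8 males it was above all females, LPD male 4 being the exception (0.67 ± 0.14, adjusted p = 0.0116).

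Kcnj5 was higher in males (1.203 ± 0.30, adjusted p = 0.0487), and this call was lost in 19 of 24 fits with 1 library left out, with an adjusted p of up to 0.145 and a difference of 1.10 to 1.37. It held without HFD female 1 or 4, HFD male 1, LPD male 4 or ND male 4. Fitted without the HFD female libraries, 8 potassium channel genes were called, against 2.73% of all genes, 7 higher in males and Kcng3 higher in females (-0.39 ± 0.10, adjusted p = 0.0219). Beside the 3 above, Kcnf1, a silent subunit of delayed rectifiers (1.13 ± 0.21, adjusted p = 0.00214), Kcnk13, a two-pore channel (0.94 ± 0.19, adjusted p = 0.00476), Kcnip1 (0.30 ± 0.07, adjusted p = 0.0206) and Kcnk1 (0.33 ± 0.09, adjusted p = 0.0490) were higher in males. Kcnf1 had 7.79 to 11.0 CPM in LPD males and 8.70 to 15.03 CPM in ND males. LPD females had 4.96 to 6.34 CPM and ND females 1.37 to 7.08 CPM, so the sexes did not overlap in these diets. Under HFD they overlapped, at 5.96 to 13.6 CPM in males and 2.25 to 19.4 CPM in females.

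Of 55 further genes of potassium transport and β-cell excitability, 50 were tested. Between HFD and ND over both sexes 1 was higher and 4 were lower, against 1.67% of all genes called higher and 5.52% called lower. Slc12a7, a potassium-chloride cotransporter (-0.36 ± 0.08, adjusted p = 0.00559), and Gnao1, a G-protein alpha subunit (-0.30 ± 0.07, adjusted p = 0.0131), were lower, as were Sstr2 and Gng3, which were at 0 in all HFD females. Sstr2 had at most 0.573 CPM and Gng3 at most 0.765 CPM in ND. Of genes at 0.3 to 1 CPM in ND females, 22.02% were at 0 in all 4 HFD females. In males 3 were called lower and 0 higher, against 1.25% of all genes called in either direction. Slc12a7 and Gnao1 were lower. Slc12a7 had 115 to 154 CPM in HFD males, against 176 to 193 CPM in ND males (-0.45 ± 0.11, adjusted p = 0.0395). In females 3 were called higher and 2 lower, against 1.98% of all genes called higher and 7.35% called lower. Gnb1, a G-protein beta subunit (0.28), and Adra2a, an adrenergic receptor (0.41), were higher in HFD females than in ND females on the log2 scale. Between the sexes, in ND and LPD, 2 were higher in males and 1 was lower, against 0.863% of all genes called in either direction. Dpp6, an A-type channel partner (0.74 ± 0.12, adjusted p = 0.00129), and Gng12, a G-protein gamma subunit (0.37 ± 0.07, adjusted p = 0.00714), were higher in males than in females.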

How the data were processed

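RNA-seq libraries of sorted β cells were analysed, 4 in each of 6 groups. The authors deposited counts per gene with no normalisation, and FPKM, which equalled counts divided by gene length and library total within 5e-04. The submitters' processing notes name cutadapt 2.10, STAR 2.7.8a, HOMER, DESeq2 and GRCm38.p6. Which program counted the reads, on which annotation and with what strand setting is not given in the sources used here. Of the 87 genes, 27 share exon bases with another gene, 25 of them with one on the opposite strand. The limit given for Kcnk3 and Kcnn1 thus also holds for Kcnab1, Kcnma1, Kcnk1, Kcnh3, Kcnq1, Kcnj6, Kcnj3, Kcnd3, Kcnk2, Kcnmb4 and Kcng2. Kcnab2 shares exon bases with a gene on the same strand. The members, gene lists, comparisons and alternatives were chosen with earlier results of these data known. A further gene that fits the naming pattern and some of the genes counted are not reported here by name.

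Counts were fitted as 6 group means in edgeR 4.0.16 (limma 3.58.1, R 4.3.3) with TMM scaling, filterByExpr and the quasi-likelihood test, and p-values were adjusted over the 19235 genes tested. A gene was called below 0.05. Folds are log2 with the SE, and positive values are higher in the group named first. Values of single libraries are CPM without TMM scaling. Where a whole group had 0 counts, the fold is a bound from a floor of 3 counts over its 4 libraries, which covers counting error only. No pair of libraries of a group agreed within counting noise. Genes named are those called, the 15 with the highest median FPKM and a list of 35. Alternatives were RLE scaling, DESeq2 1.42.0, no filter, voom with quality weights, fewer groups or libraries, a replicate block, an additive model, and the match by library number.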

Additional observations from a re-analysis of the deposited data

Results flagged for a closer look

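A library that stood apart from the other 3 of its group by Dixon's test at the 95% level was found for 8 of 163 gene and group combinations, or 4.91%, over 28 potassium channel genes. Chance flags about 1 in 20 groups. Kcnh5 was at 4.02 CPM in LPD male 4 against 30.4 to 35.6 CPM in the other LPD males, and at 6.56 CPM in ND female 4 against 15.9 to 17.8 CPM in the other ND females. It was at 35.7 CPM in ND male 2 against 29.8 to 30.6 CPM in the other ND males. Kcnmb1 was at 38.9 CPM in ND male 4 against 55.8 to 57.7 CPM, and Kcna5 at 0.382 CPM in the same library against 0.569 to 0.590 CPM. Kcnab2 was at 13.3 CPM in LPD male 2 against 9.19 to 9.64 CPM. Kcnk9 was at 0.422 CPM in HFD female 2 and Kcnj2 at 0.169 CPM in HFD male 3, with the other 3 libraries of each group at 0.

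The HFD effect differed between the sexes by the direct test in 4 genes, as effect in males minus effect in females on the log2 scale. It was -3.12 for Kcnj5, -2.19 for Kcnn1 and -2.62 for Kcnq3. For Kcnk10 the fitted value was 6.92, which depends on the prior count since all 4 HFD females were at 0. All 4 rest on the HFD female libraries.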

How the results depend on the processing

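RLE scaling kept the direction and the call of all 46 combinations of gene and comparison reported by name, DESeq2 of 41, the fit with no filter of 41, and voom with quality weights of 23. Of the 46, 37 held in each of 24 fits with 1 library left out.

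The number of potassium channel genes called moved by more than 1.5 times as follows. For HFD minus ND (10), it was 4 with an additive model of diet and sex, 6 with voom and 16 by library number. For LPD minus ND (2), it was 1 with the additive model, 5 with DESeq2, 10 with only the groups compared, 17 with voom, 9 without HFD female 1 and 4, 12 without the HFD females and 10 by library number. For HFD minus LPD (16), it was 10 with voom and 2 by library number. For HFD males (2), it was 4 with DESeq2, 5 with no filter, 9 with only the groups compared, 17 with voom, 6 without HFD female 1 and 4 and 7 without the HFD females. For HFD females (10), it was 2 with only the groups compared and 2 with voom. For LPD males (0), it was 2 with DESeq2, 2 with only the groups compared, 19 with voom, 3 without HFD female 1 and 4, 3 without the HFD females and 2 by library number. For LPD females (1), it was 2 with DESeq2, 2 with only the groups compared, 11 with voom, 3 without HFD female 1 and 4, 4 without the HFD females and 13 by library number. For the HFD effect by sex (4), it was 7 with DESeq2, 1 with voom and 2 by library number, and for the LPD effect by sex (0) 4 with voom and 8 by library number. For males minus females (3), it was 6 with DESeq2, 7 with only the groups compared, 21 with voom, 7 without HFD female 1 and 4 and 8 without the HFD females. The share of all genes called moved with the setting too. Without the HFD females it was 5.37% for LPD minus ND, against 0.832% with all libraries. It was 1.85% against 0.187% for LPD males and 2.44% against 0.307% for LPD females. For males minus females it was 2.73% against 0.863%. For the other settings that share is not given here, so those counts say nothing particular to potassium channel genes. The cause was not tested.

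With 1 library left out, the counts ranged from 9 to 15 for HFD minus ND, 2 to 4 for LPD minus ND, 14 to 19 for HFD minus LPD, 0 to 5 for HFD males, 8 to 15 for HFD females, 0 to 2 for LPD males, 1 to 2 for LPD females, 2 to 8 for the HFD effect by sex, 0 to 0 for the LPD effect by sex and 2 to 5 for males minus females.

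Same-numbered libraries of different groups correlated at -0.0959 to 0.0999 in their deviations from the group mean. Of the 24, 3 correlated best with their own number, so no pairing by number was seen. A weaker effect shared by same-numbered libraries could escape this check, since the deviations also hold differences in library quality. With the replicate number as a block the counts were 10, 2, 15, 1, 10, 0, 1, 3, 0 and 3 in the order of the paragraph on left-out libraries.

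The match by library number gives other diets to the same libraries, and it turned the sign of 41 combinations. Folds with a group at 0 depend on the prior count. For HFD minus ND, it gave -1.10 for Kcnn1, 0.61 for Kcnh1, 0.77 for Kcng3, 1.72 for Kcna2, 2.73 for Kcna5, 2.77 for Kcnj4, 3.36 for Kcnk10, 4.05 for Kcnj2 and 7.06 for Kcnh5. For LPD minus ND, it gave -0.0927 for Kcnj12 and -1.51 for Kcnj5. For HFD minus LPD, it gave -0.0822 for Kcnn1, -0.85 for Kcnab1, 0.0364 for Kcng3, 0.0725 for Kcnj2, 0.11 for Kcna2, 0.12 for Kcnh1, 0.19 for Kcnma1, 0.37 for Kcnh2, 0.49 for Kcnj12, 1.05 for Kcnk3 and 1.79 for Kcnk9. In HFD males, it gave 2.93 for Kcnh5. In HFD females, it gave -0.34 for Kcnab2, -0.47 for Kcnj5, -1.55 for Kcnq3, -1.90 for Kcnn1, 0.95 for Kcng3, 5.08 for Kcna5, 5.87 for Kcnj2, 6.06 for Kcnj4, 6.42 for Kcnk10 and 11.20 for Kcnh5, and in LPD females -1.12 for Kcnj5. For the HFD effect by sex, it gave -6.11 for Kcnk10, 1.36 for Kcnq3, 1.60 for Kcnn1 and 1.62 for Kcnj5. For males minus females, it gave -0.15 for Kcnk16, -0.20 for Kcnh1 and -1.56 for Kcnj5.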
